A study of Mus musculus with 7 samples.

Results

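The genes described here encode tau and a set of related microtubule-associated proteins of neurons: Mapt, Map1a, Map1b, Map2, Map4, Map6, Map7, Dcx, Stmn1 and Stmn2. The members were chosen by gene symbol from the deposited count table with their raw counts in the 3 groups already known, so their changes between groups are given as a description, with no p-value. They are 10 of the 23366 genes in the table, and all 10 passed the filter on low counts that left 12134 genes for testing. Map7 had 1 to 46 counts per library, and every other member had 106 or more.

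The libraries came from primary cultures of embryonic C57BL/6 mouse spinal cord (E13.5), labelled as motor neurons, that were transduced with a lentivirus. Cells of the control group (2 libraries) received an empty virus, those of the KD group (2 libraries) a virus for knockdown of miR-218, and those of the OE group (3 libraries) a virus for overexpression of this microRNA, which is abundant in motor neurons. All groups were enriched over a density gradient and were cultured in medium with CNTF, GDNF and fluorodeoxyuridine, an agent against dividing glia. The protocol text also names rat embryos beside the mice, and the species and stage given here are those of the sample labels. The design text speaks of duplicates, and the titles list 3 OE libraries, all of which were used.

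Microtubules are polar tubes of tubulin that carry transport along axons and dendrites. Tau, Map2 and Map4 share a repeat domain that binds along the tube, with tau mainly in axons and Map2 mainly in dendrites, while Map1a, Map1b, Map6 and doublecortin (Dcx) bind and stabilise microtubules through other domains and stathmins (Stmn1, Stmn2) bind free tubulin and favour disassembly. A microRNA such as miR-218 lowers messenger RNAs by pairing its seed, bases 2 to 8, with sites in their 3' untranslated regions (3' UTRs).

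The mature miR-218-5p sequence (RefSeq, the same 21 bases from the Mir218-1 precursor on chromosome 5 and the Mir218-2 precursor on chromosome 11) and its matches in the members' longest annotated 3' UTRs are shown, because the viruses act on this microRNA and Mapt is one of the members with a match. Capitals mark the seed in the microRNA and the 7mer-m8 match AAGCACA, the complement of the seed, in the UTRs; sequences run 5' to 3' and UTR stretches are from build mm9.
miR-218-5p: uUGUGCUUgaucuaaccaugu
Mapt, chr11:104191657-104191686, + strand: gccaaggcctgAAGCACAggaccagctaga
Map4, chr9:109985937-109985966, + strand: cctagctctctAAGCACAcacaaagaattg
Dcx, chrX:140297420-140297449, - strand: ggatttgtataAAGCACAgtggattcctgg
Stmn2, chr3:8561207-8561236, + strand: gcctgtagtacAAGCACAtaatgctactga

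A 7mer-m8 or 8mer match (AAGCACAA) stood in the longest 3' UTR of 4 of the 10 members, against 16% of the 11497 tested genes with an annotated 3' UTR, and no member held an 8mer, against 4.7%. The members' 3' UTRs were longer, with a median of 2475 bases against 1296 for all of those genes. The part of this length in the share with a match was not tested. The core AGCACA of the 7mer-m8 match began at base 2168 of 3903 in Mapt and at base 1703 of 2205 in Map4. In Dcx it began at base 657 of 7709, and in Stmn2 at base 894 of 1279. Map1a held a match of another class, the 7mer-A1 AGCACAA, and the core alone at another place. Dcx held the core alone at 2 further places. These are matches of letters and not tested sites, and no other member held AGCACA, the core of the seed match.

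Gene counts summed to between 1591812 and 3360686 per library, with the control libraries the shallowest. The labels do not say whether the libraries came from separate cultures, so the spread between them may be technical. The Mir218-1 row of the table, which checks the labels, rose in OE against control (log2 change 2.47, SE 0.16, edgeR adjusted p = 3.32e-12) and did not pass in KD (-0.13, SE 0.19, edgeR adjusted p = 0.727). Mature miR-218 was not measured, and a knockdown virus need not change the precursor, so the KD label has no check here. The label motor neuron was not borne out by its markers: the 8 motor neuron genes Mnx1, Isl1, Isl2, Chat, Slc18a3, Slc5a7, Lhx3 and Prph summed to between 9.43 and 21.2 depth-scaled counts (CPM, each library scaled to the same total) in any library, Mnx1 was at 0 in all of them, and 3 of the 8 passed the filter. The 8 pan-neuronal markers summed to 3840 to 4650 CPM. The libraries are therefore called cultures in what follows.

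In the knockdown cultures the messenger RNA of tau fell 2.3-fold, and in the overexpression cultures it was near its control level, while the other abundant members moved by less than 1.5-fold in either comparison. Map7, the least abundant member, had 14 counts over both controls. Its log2 change was 1.75 (SE 0.53) in KD and 1.48 (SE 0.51) in OE. The change in KD passed the thresholds given below, and that in OE did not. With DESeq2 or limma-voom the change in KD did not pass either, and over 13 alternatives it ranged from 1.01 to 4.23. In cultures measured in bulk, fewer cells of a type and less of a messenger RNA per cell cannot be told apart. A gene counted as called here when its edgeR adjusted p over all tested genes was under 0.05 and its fold change over 1.5, the thresholds that the labels state. A change under 1.5-fold is not called whatever its adjusted p, so not called does not mean unchanged. In KD against control 1 member was called higher (Map7), where 7% of all tested genes were called higher, and 1 was called lower (Mapt), where 4.71% were; 8 were not called. In OE against control no member was called, where 3.65% of all genes were called higher and 1.26% lower. In OE against KD 1 member was higher (Mapt) and none lower, where 2.93% of all genes were higher and 2.37% lower. The comparisons share libraries, so their values are given side by side and are not independent of each other.

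Mapt encodes tau, the axonal protein whose aggregates define the tauopathies, and lies at chr11:104092704-104193404 on the plus strand (mm9, as all positions here). Its raw counts were 4183 and 3324 in control and 2855 and 3150 in KD, while the OE libraries held 6516, 5538 and 6108. After scaling to depth the values were 2045 and 2130 CPM in control, 891 and 924 CPM in KD, and 1982, 1935 and 1885 CPM in OE. Both KD libraries lay below the other 5, and the 3 OE libraries lay just under both controls. The level fell 2.3-fold from 2087 ± 60.2 CPM (SD, n = 2) in control to 908 ± 23.2 CPM (SD, n = 2) in KD, a log2 change of -1.20 (SE 0.07). It was 1934 ± 48.4 CPM (SD, n = 3) in OE, a log2 change of -0.11 (SE 0.06) against control, and 2.13-fold higher than in KD (log2 1.09, SE 0.07). The fall in KD kept its call in all 13 alternative fits and left-out libraries, with log2 changes from -1.23 to -1.17.

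Map2 encodes the dendritic counterpart of tau and lies at chr1:66221847-66489157 on the plus strand. It had 1651 and 1617 CPM in control, 1346 and 1386 CPM in KD, and 1643, 1481 and 1515 CPM in OE. Both KD libraries were the lowest, and control and OE overlapped. The log2 change was -0.26 (SE 0.07) in KD and -0.08 (SE 0.07) in OE, neither called. Map2 exons overlap those of Gm10558 on the opposite strand.

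Map4, the member of the same family found in many cell types, lies at chr9:109833962-109986451. Its libraries had 301 and 299 CPM in control, 227 and 250 CPM in KD, and 284, 329 and 283 CPM in OE. Again the KD libraries were the lowest and control lay inside the OE range. The log2 changes were -0.33 (SE 0.11) in KD and -0.01 (SE 0.10) in OE, not called. Its exons overlap another annotated gene record of the same name on the same strand, so its level is less certain.

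The Mapt count divided by the count of another neuronal gene in the same library does not depend on how the libraries were scaled. Mapt stood at 1.24 and 1.32 counts per Map2 count in control, 0.662 and 0.667 in KD, and 1.21, 1.31 and 1.24 in OE. Per count of Tubb3, a neuronal tubulin, it stood at 2.96 and 2.94 in control, 1.37 and 1.63 in KD, and 3.03, 2.61 and 2.83 in OE. In both ratios KD was well below every other library, and control and OE overlapped. Per count of Stmn2 the OE libraries (1.63, 1.62 and 1.62) were above control (1.49 and 1.46), and KD was at 0.674 and 0.718. Of the ratios that leave Mapt out, Map1b per Map2 count overlapped in all groups, running from 0.436 to 0.488 over the 7 libraries. Dcx per Map2 count was lower in every OE library (0.378 to 0.401) than in any control or KD library (0.434 to 0.501).

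**Figure D1:**
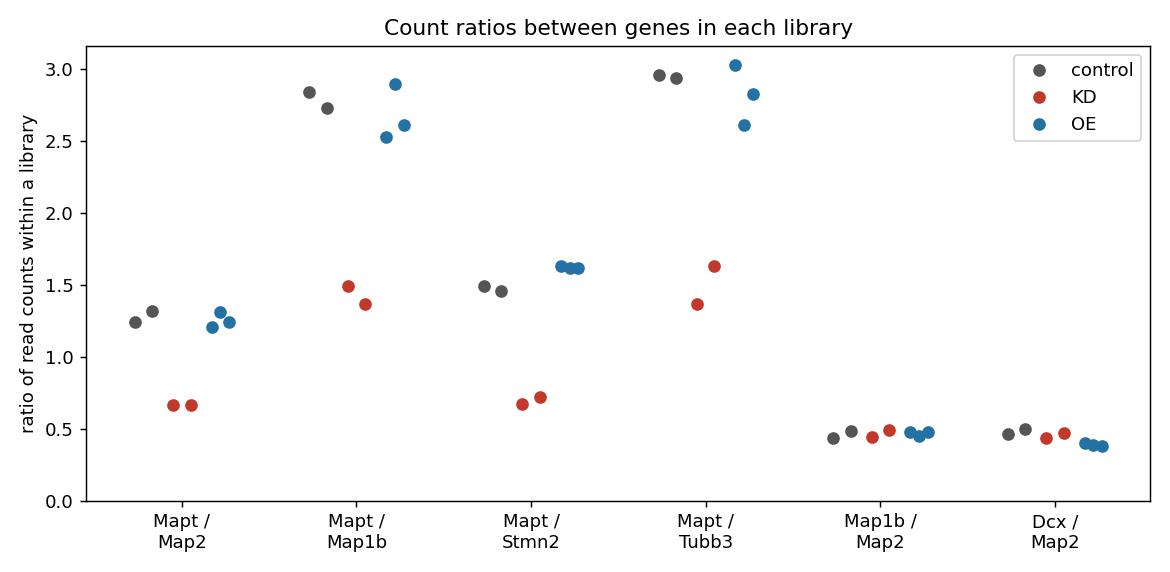
Ratio of read counts of 2 genes (y axis, no unit) in each of the 7 libraries, coloured by group, for 6 gene pairs on the x axis. The 4 ratios with Mapt as numerator are lower in both KD libraries than in every control and OE library, for example 0.662 and 0.667 against 1.21 to 1.32 for Mapt per Map2, while Map1b per Map2 overlaps in all groups.

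Map1a and Map1b encode large relatives that are each cut into a heavy and a light chain, Map1b being the form of growing axons and Map1a that of mature neurons. Map1b (chr13:100191419-100286557, minus strand) had 720 and 779 CPM in control, 596 and 676 CPM in KD, and 782, 668 and 721 CPM in OE. KD lay below control, and OE overlapped both. The log2 changes were -0.24 (SE 0.09) in KD and -0.05 (SE 0.08) in OE, not called. Map1a (chr2:121115336-121136568, plus strand) had 80.2 and 67.9 CPM in control, 71.5 and 73.9 CPM in KD, and 88.5, 75.1 and 76.8 CPM in OE. Its KD libraries lay between the controls, with log2 changes of -0.03 (SE 0.18) in KD and 0.11 (SE 0.16) in OE. Map1a exons overlap those of Ppip5k1 on the opposite strand, and since the strand setting of the counting is not given in these sources, reads of both cannot be told apart.

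Map6 encodes STOP, a protein that makes microtubules stable in the cold, and lies at chr7:106415957-106485647. It had 297 and 304 CPM in control, 226 CPM in each KD library, and 277, 276 and 279 CPM in OE, so that the 3 groups did not overlap. The log2 changes were -0.41 (SE 0.11) in KD and -0.11 (SE 0.10) in OE, neither called. Among members not called in KD, Map6 had the most negative change.

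Dcx encodes doublecortin, a marker of young and migrating neurons, and lies at chrX:140290385-140367854 on the minus strand. It had 760 and 810 CPM in control, 584 and 651 CPM in KD, and 659, 577 and 572 CPM in OE. Every library with a miR-218 virus was below both controls, and KD and OE overlapped. Its log2 change was -0.35 (SE 0.09) in KD and -0.38 (SE 0.08) in OE, neither called.

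Map7 encodes ensconsin, a protein that brings kinesin-1 to microtubules, and lies at chr10:19868277-20001393. Its counts were 13 and 1 in control, 39 and 46 in KD, and 34, 30 and 36 in OE. That is 6.35 and 0.641 CPM in control, 12.2 and 13.5 CPM in KD, and 10.3, 10.5 and 11.1 CPM in OE. Both controls were below every other library, and they differed from each other more than the KD and OE libraries did. The log2 change was 1.75 (SE 0.53) in KD, called, and 1.48 (SE 0.51) in OE, not called. As ratios of summed counts per total count, KD stood 3.5-fold above control and OE 2.77-fold. Exact 95% intervals of 1.97 to 6.66 and 1.58 to 5.25 cover counting error only. Libraries within a group differed beyond that error (chi-square per gene 3.37 for the 2 controls). The intervals are therefore too narrow, and nothing is concluded from them. The call in KD was lost in 5 of 13 alternatives, among them DESeq2 and the fits without control 2 (log2 1.01), without KD 1 (1.82) or without KD 2 (1.67), and without control 1 Map7 was also called in OE (3.97). Either control decided the size of the change: without control 1 it was 4.23 in KD, and without control 2 it was 0.75 in OE.

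Stmn1 encodes stathmin, which neurons share with dividing cells, and lies at chr4:134024235-134029758. It had 3044 and 2733 CPM in control, 2614 and 2818 CPM in KD, and 2526, 2247 and 2423 CPM in OE. Control and KD overlapped, and the OE libraries were the lowest, with log2 changes of -0.09 (SE 0.07) in KD and -0.27 (SE 0.07) in OE. An annotated gene overlaps its exons on the same strand.

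Stmn2 encodes SCG10, the stathmin of growth cones, whose transcript is misprocessed when TDP-43 is lost in human motor neurons. It lies at chr3:8509527-8561604 and had 1374 and 1458 CPM in control, 1323 and 1287 CPM in KD, and 1217, 1197 and 1161 CPM in OE. The 3 groups did not overlap, in the order control, KD, OE, over a narrow range. The log2 changes were -0.12 (SE 0.07) in KD and -0.25 (SE 0.07) in OE, not called.

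**Figure D2:**
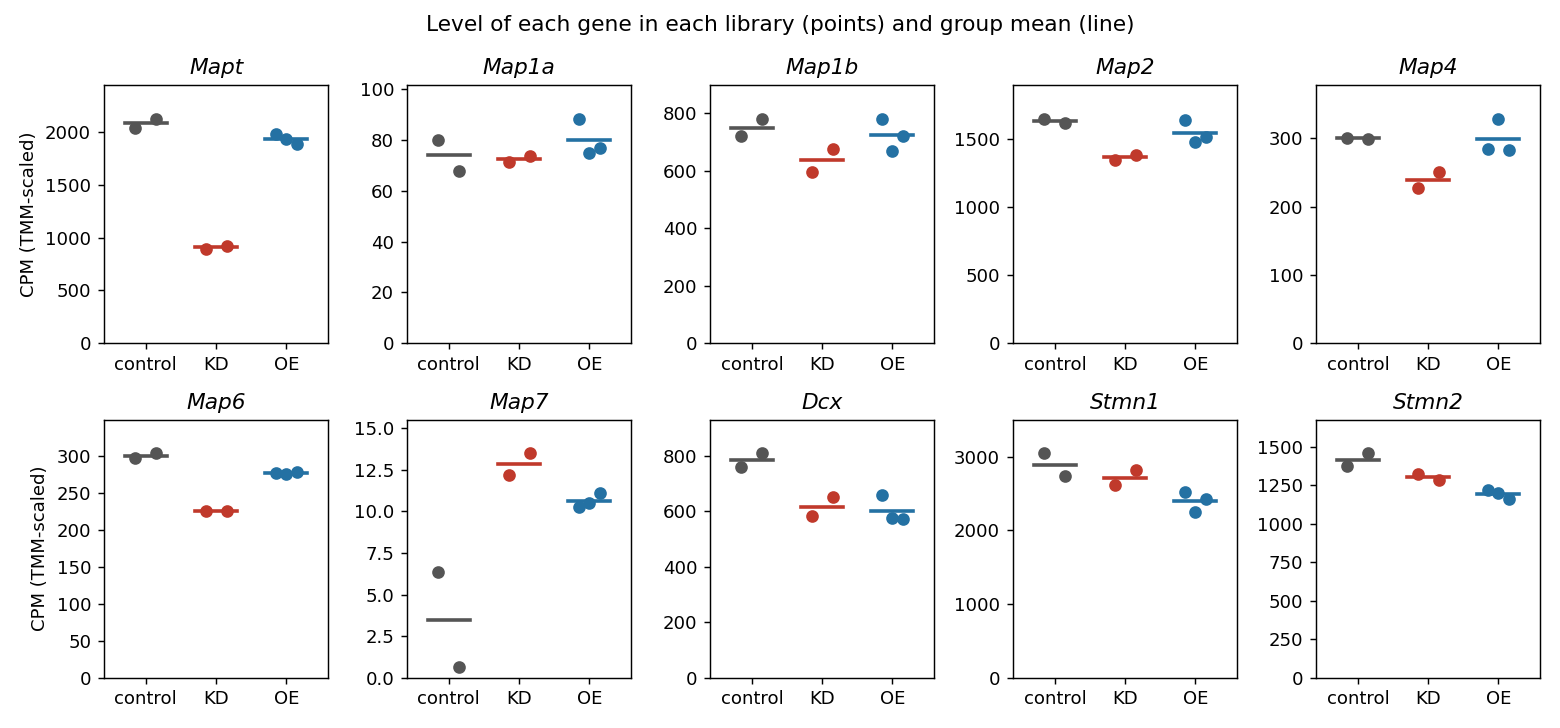
Level of each of the 10 genes in CPM after TMM scaling (linear y axis from 0, its own range in each panel); points are libraries and lines group means for control (n = 2), KD (n = 2) and OE (n = 3). Mapt is at 891 and 924 CPM in KD against 1885 to 2130 CPM elsewhere, and Map7 is lowest in both controls.

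In KD the libraries did not overlap with control for 8 of the 10 members, 7 lower and 1 higher, where 53.3% of all tested genes did not overlap in either direction. In OE against control 6 members did not overlap, 5 lower and 1 higher, against 35.3% of all genes. In OE against KD 8 did not overlap, 5 higher and 3 lower, against 37.9%. The median log2 change of the members was -0.25 in KD and -0.09 in OE, where the median of all genes was 0.00 in both, and it was 0.16 in OE against KD, where that of all genes was -0.01. Within 0.5 of no change on the log2 scale lay 8 of the 10 members in KD, against 65.2% of all genes, and 9 of the 10 in OE, against 74.3%. Since the members were chosen with these counts known, nothing follows from these shares.

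**Figure D3:**
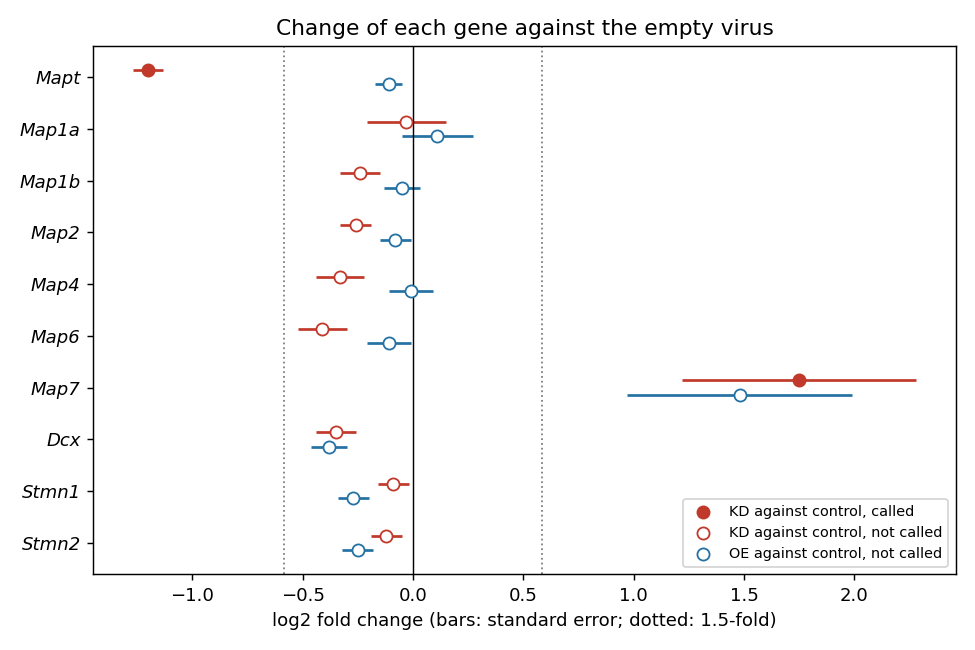
Log2 fold change of each member against control (x axis; bars are standard errors, dotted lines mark 1.5-fold) in KD (red) and OE (blue), filled where called. Mapt at -1.20 and Map7 at 1.75, both in KD, are the filled points; the other 8 members in KD lie between -0.41 and -0.03.

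The members with a 7mer-m8 match all had log2 changes below 0 in both comparisons, of differing size, with Map4 in OE near 0. Of the members without such a match, all but Map7 were also below 0 in KD. In OE all of those but Map7 and Map1a were below 0. With the match, log2 changes in OE were -0.11 for Mapt, -0.01 for Map4, -0.38 for Dcx and -0.25 for Stmn2, and none was called. In KD, where less miR-218 activity is intended, they were -1.20, -0.33, -0.35 and -0.12 in the same order.

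The 10 members together held 1.0% of the counts of each control library, 0.82% and 0.851% in KD, and 0.926%, 0.874% and 0.884% in OE. Tau made up 19.9% and 20.9% of the members' summed counts in control, 11.3% and 11.1% in KD, and 20.9%, 22% and 21.1% in OE. Stmn1 made up 29.6% and 26.8% in control, 33.1% and 33.9% in KD, and 26.7%, 25.5% and 27.1% in OE, the highest shares being in the KD libraries.

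Per kilobase of the longest annotated transcript, the order of levels in control was Stmn1 (2725 ± 208 CPM per kb, SD, n = 2), Stmn2 (744 ± 31.1), Mapt (397 ± 11.5), Map2 (261 ± 3.78), Map6 (87.5 ± 1.44), Dcx (86.5 ± 3.97), Map1b (63.2 ± 3.53), Map4 (49.3 ± 0.219), Map1a (6.26 ± 0.732) and Map7 (0.806 ± 0.931). Map6 and Dcx overlapped between the control libraries, and all other neighbours in this order did not. With the union of all exons as length, Map1b ranked 5, Dcx 6 and Map6 7, and the other ranks held. Whether the reads cover whole transcripts or their 3' ends is not given in the sources used here; over 11608 genes the mean count was nearly unrelated to transcript length (Spearman 0.0628, across genes, as a description), and without division by length Mapt and Map2 ranked above Stmn2.

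**Figure D4:**
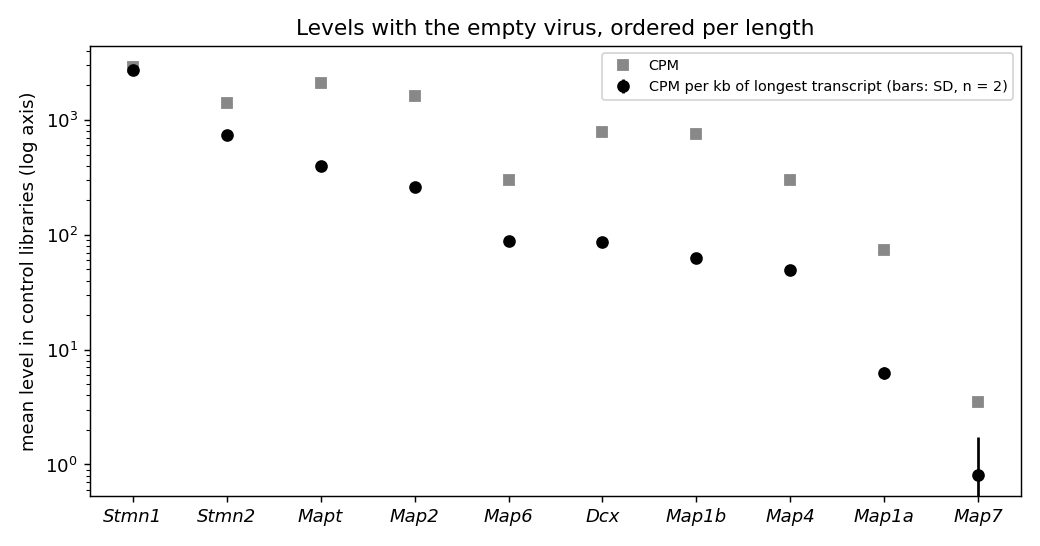
Mean level of each member in the 2 control libraries on a log axis, in CPM (squares) and in CPM per kb of the longest transcript (circles; bars are SD, n = 2), ordered by the latter. Stmn1 is highest at 2725 CPM per kb and Map7 lowest at 0.806, and the bars of all members but Map7 are about as small as the symbols.

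Likeness between genes was measured as the root mean square difference of their log2 CPM, each centred on its mean, over the 7 libraries. Among 5697 genes with a mean of at least 32 CPM, the profiles nearest to Mapt were those of Fads1 (0.0579), a fatty acid desaturase, Rab5c (0.0616), a GTPase of early endosomes, and Slc22a17 (0.0659), a lipocalin-2 receptor. These 3 were picked for their likeness, so their changes are again a description. Fads1 had 363 and 388 CPM in control, 158 and 161 CPM in KD, and 352, 320 and 305 CPM in OE. Rab5c had 300 and 306 CPM in control, 125 and 133 CPM in KD, and 293, 310 and 294 CPM in OE. Their log2 changes in KD were -1.23 (SE 0.11) for both and -1.36 (SE 0.10) for Slc22a17. Of the other 9 members, far fewer than the 5697 genes searched, the nearest to Mapt was Map6 at 0.36. Map1b and Map2 were the nearest pair of members at 0.0597, Map6 was next to Map2 at 0.0769, and Stmn1 and Stmn2 were 0.0908 apart. Map7 was the farthest member from each of the other 9, at 1.05 or more.

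Other genes of the microtubule system were listed by function, with earlier results of these data known, and taken from the same fit over all genes. Of 96 listed genes 84 were tested. In KD 10 rose (11.9%) and 8 fell (9.52%), against 7% and 4.71% of all genes. In OE 4 rose (4.76%) and none fell, against 3.65% and 1.26%. Of these rises, 8 in KD and all 4 in OE were among the 13 mitotic spindle genes given below. Outside that list only Clip4 and Fignl1 rose in KD, and no gene rose in OE. Without KD 2 the 18 calls in KD became 9, and without OE 3 the 4 in OE became 2.

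Among 19 end-binding and linker proteins 2 fell and 1 rose in KD, with a median log2 change of -0.30. Mapre2, which encodes the end-binding protein EB2, fell from 299 ± 20.3 CPM (SD, n = 2) to 111 ± 5.4 CPM (SD, n = 2), with 266 ± 14.6 CPM (SD, n = 3) in OE (KD log2 -1.44, SE 0.12, edgeR adjusted p = 1.18e-10). Nav1, a neuron navigator that tracks growing plus ends, had 226 ± 35.9 CPM in control and fell to 101 ± 1.26 CPM in KD (change on the log2 scale -1.15, SE 0.14, edgeR adjusted p = 1.97e-07). Both were again higher in OE than in KD (log2 1.26 and 0.72, edgeR adjusted p = 2.73e-10 and 0.00013). In OE against control neither was called: Mapre2 had a log2 change of -0.17, and Nav1, with 167 ± 13.7 CPM in OE, missed only the fold threshold (log2 change -0.42, SE 0.12, edgeR adjusted p = 0.0265). Clip4 rose from 52.2 to 81.5 CPM in KD (log2 change 0.65, SE 0.20, edgeR adjusted p = 0.0225) and had 52.2 CPM in OE, but its call was lost without control 1, KD 1 or KD 2.

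Among 15 tubulin-modifying enzymes 3 fell in KD and none rose. Sirt2, a deacetylase that acts on tubulin, had 32.2 ± 3.38 CPM in control and fell to 8.36 ± 1.86 CPM in KD (log2 change -1.94, SE 0.31, edgeR adjusted p = 2.78e-05) and had 29.8 ± 1.66 CPM in OE. Atat1, the enzyme that acetylates alpha-tubulin, fell to 27.2 ± 8 CPM against 61.4 ± 4.39 CPM in control (log2 change -1.17, SE 0.24, edgeR adjusted p = 0.000558). Agtpbp1, which removes glutamates from tubulin tails, had a level of 272 CPM in control and fell to 175 CPM (log2 change -0.63, SE 0.12, edgeR adjusted p = 0.00035), a call lost without control 2 or KD 2.

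Of 18 kinases, phosphatases and cofactors that act on tau and its relatives, 1 fell in KD and none rose. This was Cdk5r1, the p35 activator of the tau kinase Cdk5, at 474 ± 16.6 CPM in control, 312 ± 7.97 in KD and 443 ± 14.3 in OE (KD log2 -0.60, SE 0.09, edgeR adjusted p = 1.95e-05). Its call in KD was lost without control 1 or KD 2. Over all 13 alternatives its log2 change in KD stayed between -0.63 and -0.57. Of 13 paralogs and relatives of the members 1 fell, Map9, which had 460 ± 62.1 CPM in control and 288 ± 22.5 CPM in KD (log2 change -0.67, SE 0.11, edgeR adjusted p = 2.32e-05), a call lost without control 2. In OE Map9 had 320 ± 20.3 CPM (log2 change -0.52, SE 0.10, edgeR adjusted p = 0.000524), which missed only the fold threshold and was called without control 1. The stathmin relatives Stmn3 and Stmn4 were at log2 -0.20 and 0.09 in KD, and the doublecortin relatives Dclk1 and Dclk2 at -0.28 and -0.21, none of them called. Of 6 severing proteins Fign fell (125 to 82.2 CPM, log2 -0.60, SE 0.15, edgeR adjusted p = 0.00496; lost without KD 2) and Fignl1 rose (8.81 to 23.2 CPM, log2 1.39, SE 0.38, edgeR adjusted p = 0.0109; lost without control 2 or KD 2).

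Of 13 microtubule proteins of the mitotic spindle 8 rose in KD and none fell, and 4 rose in OE. Hmmr rose from 2.75 CPM in control to 19 CPM in KD (a log2 change of 2.76, SE 0.52, edgeR adjusted p = 0.000288) and 10.9 CPM in OE (log2 change 1.96, SE 0.53, edgeR adjusted p = 0.0172), the latter call being lost in 5 of 13 alternatives. Nusap1 rose from 13.5 CPM in control to 42.9 CPM in KD (a log2 change of 1.66, SE 0.29, edgeR adjusted p = 9.4e-05) and 31.9 CPM in OE (log2 change 1.23, SE 0.28, edgeR adjusted p = 0.00491). Tpx2, Ckap2, Ckap2l, Tacc3, Spag5 and Gtse1 were the other 6 called in KD, and Tpx2 and Ckap2 the other 2 in OE. The call of Gtse1 in KD was lost without control 2, without KD 2 and with limma-voom.

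**Figure D5:**
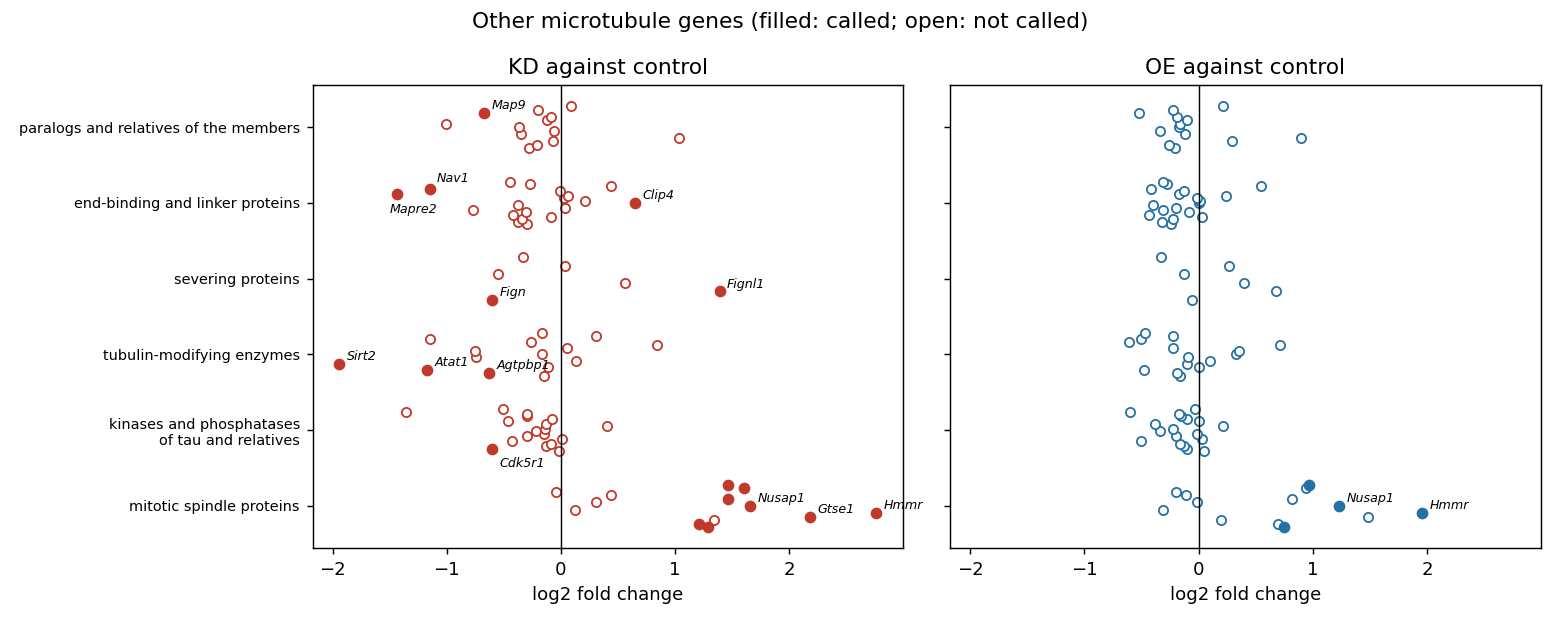
Log2 fold change (x axis) of the 84 tested microtubule genes outside the 10 members, by list, in KD (left) and OE (right) against control; filled points were called. The 8 filled spindle genes in KD lie to the right of 0, and the filled tubulin-modifying enzymes Sirt2, Atat1 and Agtpbp1 to the left, with no filled point to the left of 0 in OE.

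Summed levels of markers of other cell types differed between the groups. The 3 genes of dividing cells (Mki67, Top2a, Cdk1) summed to 98.7 to 108 CPM in control, 322 to 347 CPM in KD and 153 to 224 CPM in OE, and all 3 rose in KD and in OE against the empty virus. The 3 tested of 4 smooth muscle genes also rose in both, the list summing to 168 to 171 CPM in control, 739 to 796 CPM in KD and 310 to 445 CPM in OE. Of 8 astrocyte and radial glia genes 4 rose in KD and 4 in OE. Their sums were 2150 to 2500 CPM in control, 3340 to 4000 CPM in KD and 3970 to 4150 CPM in OE. Most of each sum came from Fabp7 and Vim (1150 and 932 CPM in control). Gfap, Aqp4 and Slc1a3 were called in neither. Their log2 changes were -0.63, -0.34 and 0.11 in KD, and 1.13, -0.24 and 0.33 in OE. Of all tested genes 7% were called higher in KD and 3.65% in OE. Fibroblast and meningeal genes summed to 158 to 173, 252 to 285 and 217 to 286 CPM, with 1 of 5 tested called in KD and 2 in OE, all higher. Oligodendrocyte lineage genes (55.1 to 106 CPM) and microglial genes (22.7 to 33 CPM, Csf1r at 0) had no call against control, and endothelial genes reached at most 1.76 CPM.

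Pan-neuronal genes summed to 4510 to 4650 CPM in control, 3840 to 4010 CPM in KD and 3960 to 4450 CPM in OE. Their median log2 change was -0.20 in KD and -0.16 in OE, beside -0.25 and -0.09 for the members; 1 of the 8, Elavl3, was called, lower in KD, with a log2 change of -0.62 (SE 0.09, edgeR adjusted p = 6.37e-06). The part of these cell markers in the members' and companion genes' values was not tested.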

How the data were processed

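The authors deposited 1 table with the raw count of each gene in each of 7 libraries, per the file headers. Per the labels' protocols, 50-base single-end sequencing was followed by base calling in CASAVA 1.8.2, mapping to mm9 in TopHat2 2.0.10 and counting of uniquely mapped reads in HTSeq-count 0.6.1p1; neither the annotation nor the strand setting is stated in these sources. The authors' scaled values and comparisons in the table were not used. Counts were fitted in R 4.3.3 with edgeR 4.0.16 (TMM, filterByExpr by group, robust quasi-likelihood F test, 1 fit of all 7 libraries, Benjamini-Hochberg adjustment over 12134 genes, two-sided). CPM are TMM-scaled. Each standard error was derived from a fold change together with its F value. Of 23366 genes 6232 had no count. Libraries within a group differed beyond sampling noise (chi-square per gene 2.95 to 3.51). Seed matches were searched in GENCODE annotation of mm9, to which 95.7% of tested genes were matched, on the transcribed strand only. The fit was also run on counts simulated from its own estimates, which does not show how well it holds for the real libraries. All 10 members are named. Of each companion list up to 3 called genes with the largest absolute log2 change are named. Stmn3, Stmn4, Dclk1, Dclk2, Elavl3, Fabp7, Vim, Gfap, Aqp4, Slc1a3 and the remaining called spindle genes were named after their values were seen. The members and lists were chosen with earlier results of these data known. Alternatives were RLE factors, no filter, DESeq2 1.42.0, limma-voom (limma 3.58.1), only the compared groups, a replicate block and leaving out each library.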

Additional observations from a re-analysis of the deposited data

How the results depend on the processing

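Of 390 member fold changes recomputed over 13 alternatives, 376 kept their direction and call, 5 lost and 2 gained a call (all Map7), and 7 near 0 changed sign; the cause of these changes was not tested. The number of members called in KD against control (2) was 1 with DESeq2 and 1 with limma-voom, and 1 to 2 with a library left out. In OE against control (0) it was 1 with no filter and 0 to 1 with a library left out. Companion genes called were 9 (without KD 2) to 18 of 18 in KD with a library left out, 1 of 4 in OE with limma-voom and 2 (without OE 3) to 4 with a library left out, and 3 of 5 in OE against KD with the replicate block and 3 to 6 with a library left out. Deviations of same-numbered libraries correlated at -0.0538 for control and KD and at -0.0281 to 0.0258 otherwise. With 2 libraries each in control and KD, these values cannot settle whether equal numbers pair libraries. With the replicate block Map4 in OE was at 0.03. With a library left out, log2 changes that crossed 0 ranged from -0.14 to 0.09 for Map1a in KD, -0.10 to 0.02 for Map1b in OE, -0.08 to 0.03 for Map4 in OE and -0.10 to 0.06 for Dcx in OE against KD. Over all genes, 849 higher in KD became 486 without KD 2 and 593 or more in other left-out fits; 443 higher in OE became 223 with limma-voom and 237 without control 2 or 294 without OE 3; 287 lower in OE against KD became 154 with DESeq2, 187 without OE 1, 132 without KD 1 and 110 without KD 2. Depth limits Map7 most among the members, with 14 counts over both controls. Map1a comes next, with 270 counts over both controls and an SE of 0.18 for its log2 change in KD.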
